A study of Homo sapiens with 12 samples.

Results

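The integrated stress response was followed through 37 genes: 3 kinases of eIF2alpha, 8 transcription factors of the ATF4 pathway, 6 feedback and stress effectors, 7 amino acid transporters, 6 enzymes of serine and folate metabolism, 4 other enzymes of amino acid and carbon metabolism, and 3 secreted or surface proteins. They were chosen by name for their known place in the pathway, with earlier results of these data known. The counts of members risen and fallen are therefore a description and not an independent result. All 37 were found among the 63677 genes counted in each library and among the 21325 genes with enough counts to be tested. RNA was sequenced from HCC38, MDA-MB-468 and SUM149PT, which are lines of basal-like breast cancer, after knock-down of the long non-coding RNA RP11-19E11.1, to ask which genes depend on this lncRNA. The knock-down cells received LNA1 and LNA2, locked nucleic acid antisense oligonucleotides against the lncRNA, and their controls received the non-targeting LNA NS. Every culture was transfected on seeding at 50 nM, given fresh medium after 6 h and collected at 24 h, so the controls were transfected cells as well. There were 2 libraries for each line and treatment and 12 in all. Each line is a single established tumor cell line, and the lines are kept in different media, so that line and medium cannot be told apart.

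In the integrated stress response, kinases that sense amino acid shortage, unfolded protein in the endoplasmic reticulum, heme shortage or mitochondrial stress, and double-stranded RNA phosphorylate the translation factor eIF2alpha. General translation then slows while the ATF4 mRNA is translated more, and ATF4 with its partners of the C/EBP family activates genes for amino acid uptake, amino acid synthesis and redox balance. CHOP, encoded by DDIT3, carries the response toward cell death when stress lasts, and PPP1R15A brings a phosphatase to eIF2alpha and closes the loop. Much of this control is on translation, which read counts of mRNA do not show.

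ATF4 and C/EBP factors bind a composite element whose core was searched as TGATGNAA, on both strands, where N is any base. RefSeq promoter windows of GRCh38.p14, each 300 bases long with 250 bases before the start of a transcript and 50 after it, were given for 29 of the 37 members. The core stood in 9 of the 46 windows of members (19.6%) and in 1270 of all 35116 windows (3.62%). Counted by gene, 9 of the 29 members (31.0%) had at least 1 window with the core, against 395 of the 13387 tested genes with a window (2.95%). Of these 9 members, 8 rose on average over the lines and 1, SLC7A1, fell, by the test described below. Of all 37 members, 26 rose and 8 fell on average, where 28.4% of all genes tested rose and 26.5% fell. The members were listed for their known place in the ATF4 pathway, so a higher share with the core than among all genes could follow from that choice. A match is a description of the letters and not evidence of a bound site. The windows of the 6 members with the largest average change among the 9 with the core are shown because they include the strongest rises and the fall. The core is in capitals, and each window is read 5′ to 3′ on the strand of the gene. They are chr15:40953221-40953520 for CHAC1, chr1:212565157-212565456 for ATF3, chr7:97872359-97872658 for ASNS (minus strand), chr13:29595639-29595938 for SLC7A1 (minus strand), chr11:62881449-62881748 for SLC3A2 and chr2:64989149-64989448 for SLC1A4.
CHAC1: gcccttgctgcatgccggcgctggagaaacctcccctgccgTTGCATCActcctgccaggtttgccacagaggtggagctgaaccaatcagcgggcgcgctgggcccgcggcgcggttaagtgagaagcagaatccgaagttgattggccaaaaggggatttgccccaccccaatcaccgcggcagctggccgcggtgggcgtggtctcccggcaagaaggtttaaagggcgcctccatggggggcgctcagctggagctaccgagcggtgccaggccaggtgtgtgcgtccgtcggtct
ATF3: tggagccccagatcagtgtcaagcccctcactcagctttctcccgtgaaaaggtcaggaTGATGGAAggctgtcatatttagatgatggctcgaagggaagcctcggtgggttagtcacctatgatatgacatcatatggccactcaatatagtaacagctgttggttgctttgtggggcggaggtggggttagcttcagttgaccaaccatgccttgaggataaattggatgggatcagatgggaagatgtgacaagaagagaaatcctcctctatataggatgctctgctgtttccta
ASNS: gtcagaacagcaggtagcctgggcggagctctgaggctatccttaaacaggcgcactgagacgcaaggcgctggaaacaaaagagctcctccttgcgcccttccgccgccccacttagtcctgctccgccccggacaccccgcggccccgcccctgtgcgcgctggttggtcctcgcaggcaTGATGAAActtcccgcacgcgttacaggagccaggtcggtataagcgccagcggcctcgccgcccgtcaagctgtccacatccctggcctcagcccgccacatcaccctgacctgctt
SLC7A1: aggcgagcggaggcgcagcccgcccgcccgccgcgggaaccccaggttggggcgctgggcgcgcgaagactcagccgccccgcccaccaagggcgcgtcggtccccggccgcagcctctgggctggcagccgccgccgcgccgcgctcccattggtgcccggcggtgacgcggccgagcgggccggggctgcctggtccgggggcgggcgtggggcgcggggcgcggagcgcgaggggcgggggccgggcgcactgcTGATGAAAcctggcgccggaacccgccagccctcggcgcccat
SLC3A2: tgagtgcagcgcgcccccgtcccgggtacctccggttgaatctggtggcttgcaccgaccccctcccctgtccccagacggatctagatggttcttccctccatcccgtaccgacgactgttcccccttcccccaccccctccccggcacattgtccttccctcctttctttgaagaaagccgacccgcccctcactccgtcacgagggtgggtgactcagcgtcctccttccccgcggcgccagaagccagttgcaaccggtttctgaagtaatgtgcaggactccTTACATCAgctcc
SLC1A4: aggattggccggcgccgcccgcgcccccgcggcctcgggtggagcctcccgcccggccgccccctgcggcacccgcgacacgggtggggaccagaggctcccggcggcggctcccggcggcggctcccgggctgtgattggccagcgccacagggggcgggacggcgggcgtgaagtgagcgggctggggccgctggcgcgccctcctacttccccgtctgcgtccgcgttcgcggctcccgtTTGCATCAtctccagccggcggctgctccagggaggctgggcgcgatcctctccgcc
With the first transcribed base as 1, the core began at -209 in CHAC1, -191 in ATF3, -68 in ASNS, 8 in SLC7A1, 38 in SLC3A2 and -7 in SLC1A4. It read as TGATGNAA on the strand of the gene in ATF3, ASNS and SLC7A1, and on the other strand in CHAC1, SLC3A2 and SLC1A4. The other members with the core were CEBPG, JDP2 and SLC1A5.

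The targeted lncRNA was lower after knock-down in every line, but in MDA-MB-468 it was below 1 CPM with LNA NS already. RP11-19E11.1 was at 0.0230 and 0.0235 CPM after knock-down against 0.796 and 0.611 CPM with LNA NS in MDA-MB-468, at 0.576 and 0.416 CPM after knock-down against 10.7 and 11.2 CPM with LNA NS in SUM149PT, and at 1.48 and 2.05 CPM after knock-down against 14.6 and 15.1 CPM with LNA NS in HCC38. CPM are counts scaled to the normalized size of each library, and gene counts per library ran from 32187835 to 56191152. MDA-MB-468, with the lowest level of the lncRNA, had the largest shares of genes called in the test described below, 24.9% risen and 25.7% fallen. Whether the changes followed from loss of the lncRNA was not tested. All 6 epithelial markers were at 1 CPM or more in each group, but their sum was 5963 to 6110.4 CPM after knock-down against 7328 to 7462 CPM with LNA NS in MDA-MB-468, 6193 to 6351 CPM after knock-down against 7528 to 7949.9 CPM with LNA NS in SUM149PT, and 4076 to 4319.7 CPM after knock-down against 4088 to 4366 CPM with LNA NS in HCC38. Of the 6 immune markers, CD14 and ITGAM were at 1 CPM or more in each group and the others, PTPRC, CD3E and CD68 among them, below it. The immune sum was 7.55 to 12.7 CPM over the knock-down libraries against 7.39 to 14.7 CPM over the LNA NS libraries. The 5 fibroblast markers, of which LUM and PDGFRB were below 1 CPM in each group, summed to 18.8 to 130.3 CPM over the knock-down libraries against 16.9 to 123 CPM over the LNA NS libraries, with the highest values in HCC38. The 3 endothelial markers with a match summed to 6.78 to 7.48 CPM after knock-down against 2.00 to 2.55 CPM with LNA NS in MDA-MB-468 and 2.38 to 2.56 CPM after knock-down against 0.509 to 0.521 CPM with LNA NS in SUM149PT. In HCC38 all 3 were below 1 CPM. Of the 4 luminal markers, PGR was below 1 CPM in each group and ESR1 in HCC38, and the others, GATA3 and FOXA1 among them, were at 1 CPM or more. The luminal sum was 114 to 122 CPM after knock-down against 128 to 137 CPM with LNA NS in MDA-MB-468. It was 75.5 to 80.8 against 63.5 to 69.1 CPM in SUM149PT and 44.2 to 44.3 against 48.7 to 49.5 CPM in HCC38. KRT14 and KRT17, markers of basal cells, were below 1 CPM in the LNA NS libraries of HCC38. The summed level of the 6 basal markers was 4793 to 5200.3 CPM after knock-down against 7973 to 8703 CPM with LNA NS in MDA-MB-468, 3195 to 3372 CPM after knock-down against 4310.4 to 4683 CPM with LNA NS in SUM149PT, and 385 to 445 CPM after knock-down against 377 to 455 CPM with LNA NS in HCC38. The part of these marker sums in the results was not tested. In bulk RNA, a change in the share of cells that use a gene and a change in each cell cannot be told apart.

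More members rose than fell in each line. A gene was called, as risen or as fallen, where its adjusted p was under 0.1 in the quasi-likelihood test of edgeR, with Benjamini-Hochberg adjustment over all 21325 genes, and all adjusted p below are from this test. In MDA-MB-468, 25 members rose and 7 fell, where 24.9% of all genes tested rose and 25.7% fell. In SUM149PT, 20 members rose and 6 fell, where 20.0% of all genes rose and 18.0% fell. In HCC38, 24 members rose and 4 fell, where 15.5% of all genes rose and 18.4% fell. The median log2 fold change of the members, knock-down over LNA NS, was 0.72 for MDA-MB-468, 0.25 for SUM149PT and 0.29 for HCC38, against 0.00, 0.03 and 0.01 over all genes tested in the same lines. Upper-quartile scaling put the median of all genes at 0.14 in MDA-MB-468 and 0.13 in HCC38. With it the members split in MDA-MB-468 into 29 risen and 3 fallen, where 31.1% of all genes rose and 21.2% fell. EIF2AK4, EIF4EBP1, PSPH and ALDH1L2 were no longer called as fallen there (-0.20, -0.13, -0.11 and -0.30, adjusted p = 0.18, 0.36, 0.29 and 0.11).

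On average over the 3 lines, 26 members rose, 8 fell and 3 did not pass the test, where 28.4% of all genes rose and 26.5% fell. These 34 calls were all kept whichever of the 12 libraries was left out, but with upper-quartile scaling DDIT4 and EIF4EBP1 were no longer called, at -0.07 and -0.06 (adjusted p = 0.36 and 0.45), and the 3 uncalled members, EIF2AK1, EIF2AK3 and GPT2, rose. With that scaling 35.7% of all genes rose and 21.1% fell on average. A rise of more than 2-fold was found for 13 members in MDA-MB-468 (9.21% of all genes), for 4 in SUM149PT (6.31% of all genes) and for 9 in HCC38 (4.96% of all genes). Of the members, 18 rose in each of the 3 lines, as did 6.6% of all genes, and 3 (SLC7A1, PHGDH and PSPH) fell in each of them, as did 8.74% of all genes. No member was called in opposite directions in different lines. The call was made in 3 lines for 21 members, in 2 lines for 9, in 1 line for 5 and in none for EIF2AK3 and GPT2.

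**Figure D1:**
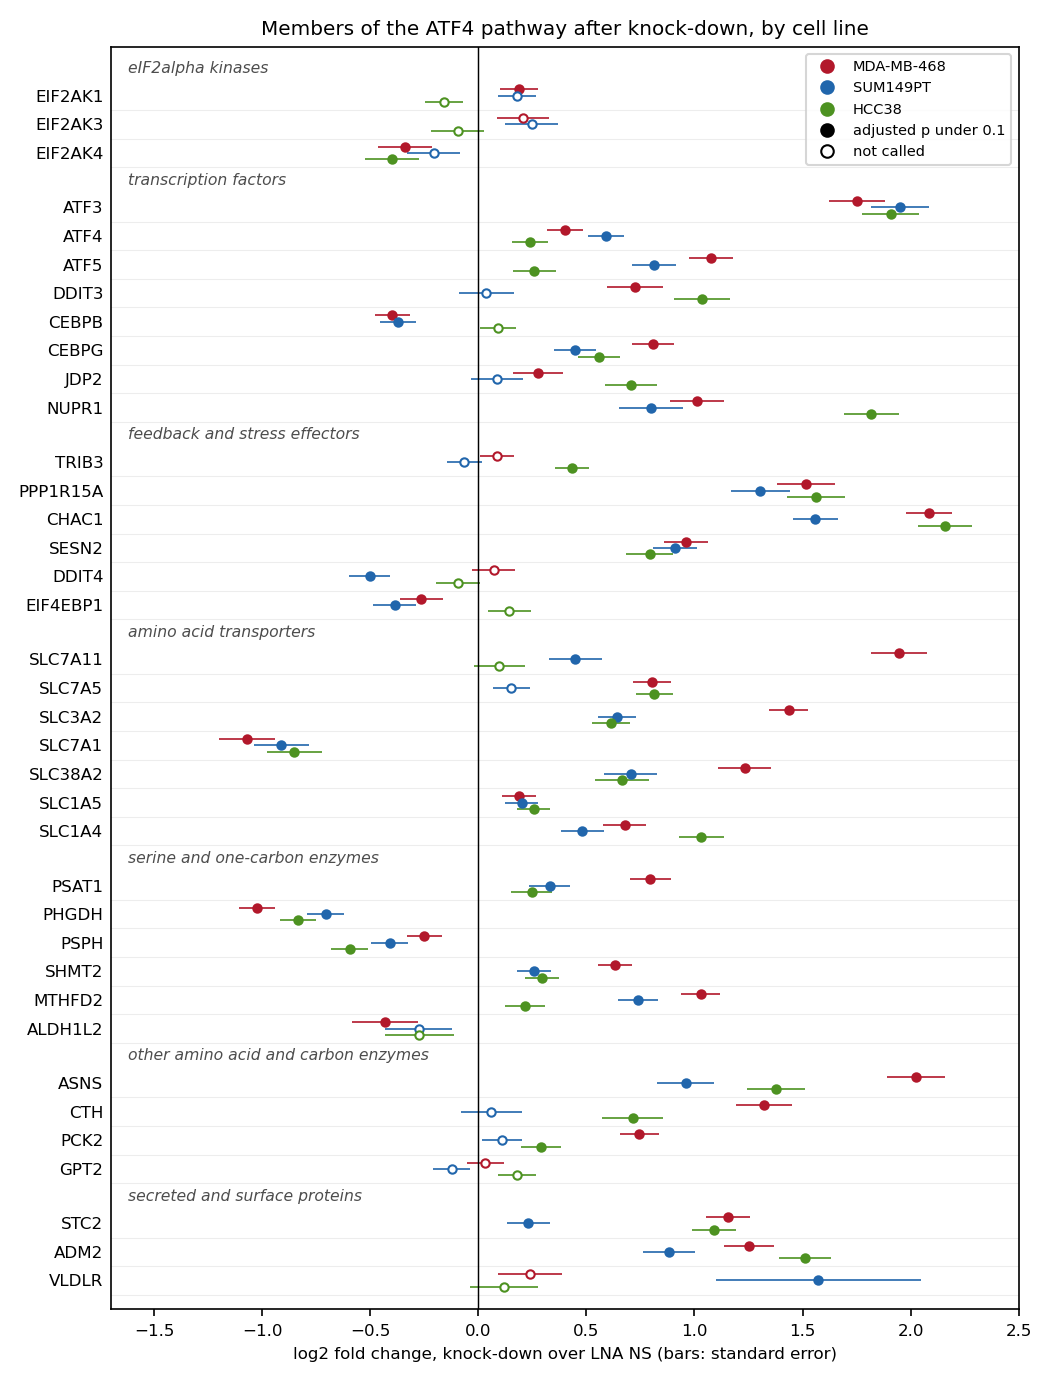
The log2 fold change of each of the 37 members, knock-down over LNA NS, is plotted for MDA-MB-468, SUM149PT and HCC38, grouped by role, with the standard error as a bar and filled points for an adjusted p under 0.1. Most points lie right of 0, with the farthest for CHAC1, at 2.16 in HCC38, and SLC7A1 and PHGDH lie left of 0 in all 3 lines.

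The sensors at the head of the pathway changed little. EIF2AK1, the heme-regulated kinase HRI, was at 333 and 335 CPM after knock-down against 301 and 285 CPM with LNA NS in MDA-MB-468, and at 161 and 136 CPM after knock-down against 132 and 130.0 CPM with LNA NS in SUM149PT. In HCC38 EIF2AK1 was at 129 and 129.9 CPM after knock-down against 147 and 143 CPM with LNA NS. The groups did not overlap in any line, but the log2 fold changes were small, 0.19 ± 0.09 for MDA-MB-468, 0.18 ± 0.09 for SUM149PT and -0.16 ± 0.09 for HCC38 (adjusted p = 0.094, 0.14 and 0.2). The call in MDA-MB-468 was lost in 10 of the 12 fits that left out 1 library, with values of 0.15 to 0.22. EIF2AK3, the endoplasmic reticulum kinase PERK, was at 20.04 and 22.97 CPM after knock-down against 20.03 and 17.3 CPM with LNA NS in MDA-MB-468, and at 18.3 and 18.3 CPM after knock-down against 15.9 and 14.95 CPM with LNA NS in SUM149PT. In HCC38 EIF2AK3 was at 13.1 and 12.3 CPM after knock-down against 13.2 and 13.98 CPM with LNA NS. It passed the test in no line, with log2 fold changes of 0.21 ± 0.12 for MDA-MB-468, 0.25 ± 0.12 for SUM149PT and -0.10 ± 0.12 for HCC38 (adjusted p = 0.18, 0.14 and 0.62), and the value in HCC38 turned to 0.03 with upper-quartile scaling. EIF2AK4, the amino acid sensor GCN2, was at 44.1 and 36.5 CPM after knock-down against 50.1 and 51.7 CPM with LNA NS in MDA-MB-468, and at 128 and 110.3 CPM after knock-down against 149 and 125 CPM with LNA NS in SUM149PT. In HCC38 EIF2AK4 was at 39.8 and 34.95 CPM after knock-down against 45.8 and 52.9 CPM with LNA NS. It was lower after knock-down in MDA-MB-468 and HCC38, while its groups overlapped in SUM149PT. Its log2 fold changes were -0.34 ± 0.13 for MDA-MB-468, -0.21 ± 0.12 for SUM149PT and -0.40 ± 0.12 for HCC38 (adjusted p = 0.039, 0.23 and 0.026). Both calls were lost without replicate 2 of either treatment in the same line, with values of -0.49 to -0.20 in MDA-MB-468 and -0.52 to -0.30 in HCC38. On average over the lines EIF2AK4 fell by 0.31 ± 0.07 on the log2 scale (adjusted p = 0.0017). With the span trend removed, described further on, both line calls were lost, at -0.09 in MDA-MB-468 and -0.19 in HCC38 (adjusted p = 0.51 and 0.17), and the average was -0.15 (adjusted p = 0.035). With upper-quartile scaling the call in MDA-MB-468 was lost, at -0.20 (adjusted p = 0.18). EIF2AK3, with the span trend removed, was called in MDA-MB-468 and SUM149PT, at 0.61 and 0.35 (adjusted p = 0.00064 and 0.038). Its average was then 0.39 (adjusted p = 0.00023). EIF2AK2, the kinase that senses double-stranded RNA, was not a member. It fell in HCC38, at -0.38, and on average, at -0.18 (adjusted p = 0.0055 and 0.01). In MDA-MB-468 and SUM149PT it was not called, at -0.04 and -0.11 (adjusted p = 0.74 and 0.42). The exons of EIF2AK1 overlap those of AIMP2 on the other strand.

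Of the 8 transcription factors, 7 rose and 1 fell on average. ATF4, the factor that gives the pathway its name, was at 1001 and 1048 CPM after knock-down against 771 and 782 CPM with LNA NS in MDA-MB-468, and at 426 and 461 CPM after knock-down against 279 and 309.6 CPM with LNA NS in SUM149PT. In HCC38 ATF4 was at 256 and 274 CPM after knock-down against 231 and 217 CPM with LNA NS. Knock-down libraries were above LNA NS in each line, by log2 fold changes of 0.40 ± 0.08 for MDA-MB-468, 0.59 ± 0.08 for SUM149PT and 0.24 ± 0.08 for HCC38 (adjusted p = 0.00099, 7.4e-05 and 0.046). Without replicate 2 of either treatment the call in HCC38 was lost, at 0.19 to 0.28, and with a trend on gene span removed it was lost too, at 0.06 (adjusted p = 0.62). ATF3, a stress-induced repressor of the same family, was at 78.9 and 102 CPM after knock-down against 24.8 and 28.9 CPM with LNA NS in MDA-MB-468, and at 49.1 and 56.04 CPM after knock-down against 13.98 and 13.2 CPM with LNA NS in SUM149PT. In HCC38 ATF3 was at 48.9 and 51.5 CPM after knock-down against 13.98 and 12.8 CPM with LNA NS. Its lowest knock-down library was above its highest LNA NS library in every line, and the log2 fold changes were 1.75 ± 0.13 for MDA-MB-468, 1.95 ± 0.13 for SUM149PT and 1.91 ± 0.13 for HCC38 (adjusted p = 3.6e-08, 7.4e-08 and 8.6e-08). The value for SUM149PT was the largest of the 37 members in that line.

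ATF5, a factor linked to mitochondrial stress, was at 55.02 and 65.4 CPM after knock-down against 28.6 and 28.5 CPM with LNA NS in MDA-MB-468, and at 61.8 and 63.1 CPM after knock-down against 36.4 and 34.6 CPM with LNA NS in SUM149PT. In HCC38 ATF5 was at 87.3 and 96.6 CPM after knock-down against 77.8 and 75.6 CPM with LNA NS. It was higher after knock-down in each line, by log2 fold changes of 1.08 ± 0.10 for MDA-MB-468, 0.81 ± 0.10 for SUM149PT and 0.26 ± 0.10 for HCC38 (adjusted p = 4.9e-07, 2.2e-05 and 0.064), and the response differed between lines (adjusted p = 0.0023). The call in HCC38 was lost without either LNA NS library or without knock-down replicate 2, at 0.19 to 0.31, and also with the span trend removed, at 0.08 (adjusted p = 0.56). DDIT3, which encodes CHOP, was at 32.7 and 36.02 CPM after knock-down against 20.1 and 21.5 CPM with LNA NS in MDA-MB-468, and at 37.9 and 44.9 CPM after knock-down against 37.2 and 43.4 CPM with LNA NS in SUM149PT. In HCC38 DDIT3 was at 36.8 and 44.99 CPM after knock-down against 20.97 and 18.9 CPM with LNA NS. In SUM149PT the groups overlapped, and in the other lines they did not. The log2 fold changes were 0.72 ± 0.13 for MDA-MB-468, 0.04 ± 0.13 for SUM149PT and 1.03 ± 0.13 for HCC38 (adjusted p = 0.00026, 0.88 and 2.4e-05), with an adjusted p of 0.003 between lines. The small value in SUM149PT changed sign when LNA NS replicate 1 or knock-down replicate 2 was left out (range -0.08 to 0.15). DDIT3 shares exon sequence with MARS1 and MBD6 on the other strand, and ATF5 with NUP62.

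NUPR1, a small chromatin protein of the stress response, was at 184 and 209 CPM after knock-down against 98.5 and 96.3 CPM with LNA NS in MDA-MB-468, and at 8.85 and 10.4 CPM after knock-down against 4.71 and 6.35 CPM with LNA NS in SUM149PT. In HCC38 NUPR1 was at 174 and 212 CPM after knock-down against 54.4 and 55.2 CPM with LNA NS. All 3 pairs of groups were apart, and HCC38 moved most, with log2 fold changes of 1.01 ± 0.12 for MDA-MB-468, 0.80 ± 0.15 for SUM149PT and 1.82 ± 0.13 for HCC38 (adjusted p = 6.7e-06, 0.00072 and 8.6e-08) and an adjusted p of 0.0024 between lines. CEBPG, a dimer partner of ATF4, rose in each line, on average by 0.61 ± 0.06 on the log2 scale (adjusted p = 2.1e-07). JDP2, a repressor related to ATF3, rose on average by 0.36 ± 0.07 on the log2 scale (adjusted p = 0.0004). In HCC38 its log2 fold change was 0.70, and in SUM149PT, where it was not called, 0.09. Its call in MDA-MB-468 (0.28) was lost without either knock-down library or LNA NS replicate 1, at 0.19 to 0.35. CEBPB, another C/EBP partner of ATF4, fell in MDA-MB-468 and SUM149PT (-0.40 and -0.37, adjusted p = 0.00094 and 0.0027). Its log2 fold change in HCC38 was 0.09 (adjusted p = 0.46), and the test between lines gave an adjusted p of 0.0091.

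**Figure D2:**
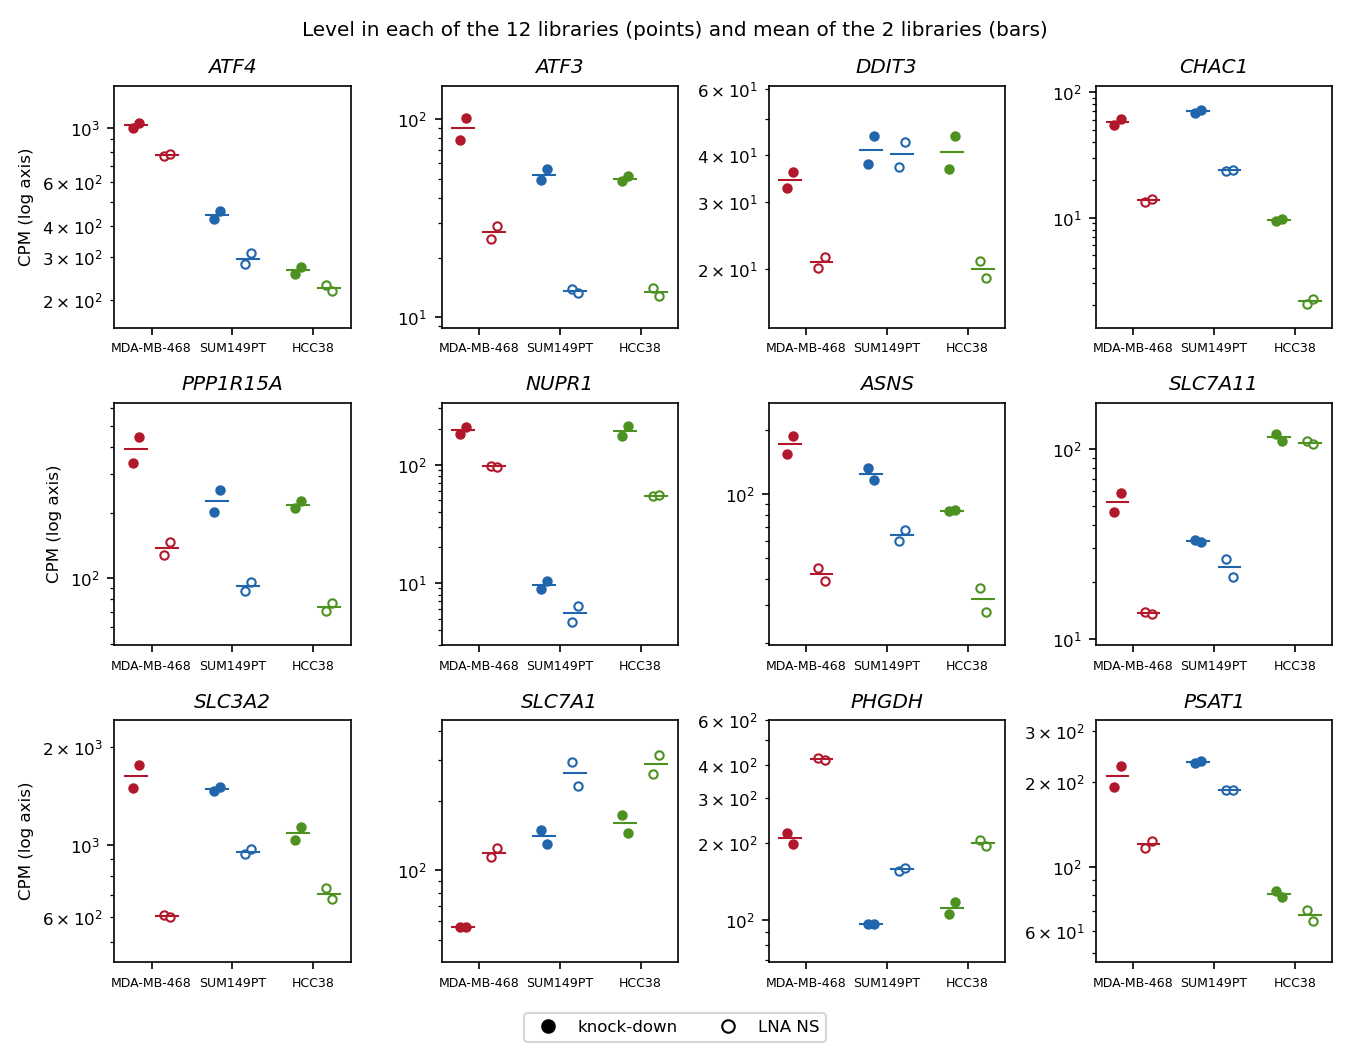
The level of 12 members in CPM, on a log axis, is plotted for each library, with knock-down (filled) left of LNA NS (open) in each line and a bar at the mean of 2 libraries. CHAC1, ATF3 and ASNS were higher in every knock-down library than in the LNA NS libraries of the same line, SLC7A1 and PHGDH were lower, and SLC7A11 stood at 46.5 and 59.0 CPM after knock-down against 13.9 and 13.5 CPM with LNA NS in MDA-MB-468.

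Among the feedback and stress effectors, 4 rose and 2 fell on average. CHAC1, an enzyme that degrades glutathione, was at 54.95 and 61.3 CPM after knock-down against 13.3 and 14.1 CPM with LNA NS in MDA-MB-468, and at 68.4 and 71.9 CPM after knock-down against 23.5 and 24.1 CPM with LNA NS in SUM149PT. In HCC38 CHAC1 was at 9.46 and 9.83 CPM after knock-down against 2.05 and 2.25 CPM with LNA NS. It had the largest average change of all members, 1.94 ± 0.06 on the log2 scale (adjusted p = 4.1e-12). In the lines the log2 fold changes were 2.09 ± 0.11 for MDA-MB-468, 1.56 ± 0.10 for SUM149PT and 2.16 ± 0.12 for HCC38 (adjusted p = 1e-09, 5.3e-08 and 2.2e-08), with the smallest in SUM149PT (between-line adjusted p = 0.015). PPP1R15A, also known as GADD34, the subunit that directs a phosphatase to eIF2alpha, was at 337 and 446 CPM after knock-down against 128 and 146 CPM with LNA NS in MDA-MB-468, and at 200.1 and 253 CPM after knock-down against 87.6 and 95.9 CPM with LNA NS in SUM149PT. In HCC38 PPP1R15A was at 209.7 and 226 CPM after knock-down against 70.4 and 76.9 CPM with LNA NS. Its knock-down libraries were above LNA NS in each line, and the log2 fold changes of 1.52 ± 0.14 for MDA-MB-468, 1.31 ± 0.14 for SUM149PT and 1.56 ± 0.14 for HCC38 (adjusted p = 2.5e-07, 3.6e-06 and 7.8e-07) were not shown to differ between lines (adjusted p = 0.53). TRIB3, a pseudokinase that binds ATF4 and CHOP and limits their activity, was at 374 and 373 CPM after knock-down against 352 and 352 CPM with LNA NS in MDA-MB-468, and at 72.1 and 67.9 CPM after knock-down against 74.4 and 72.2 CPM with LNA NS in SUM149PT. In HCC38 TRIB3 was at 193 and 198 CPM after knock-down against 151 and 139 CPM with LNA NS. It was called in HCC38 and not in the other lines, with log2 fold changes of 0.09 ± 0.08 for MDA-MB-468, -0.07 ± 0.08 for SUM149PT and 0.43 ± 0.08 for HCC38 (adjusted p = 0.42, 0.6 and 0.00079), and the test between lines gave an adjusted p of 0.012.

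SESN2, a leucine-binding inhibitor of mTORC1 signaling, rose in each line, on average by 0.89 ± 0.06 on the log2 scale (adjusted p = 7.2e-09). DDIT4, also known as REDD1, another inhibitor of mTORC1, was at 30.2 and 35.1 CPM after knock-down against 29.5 and 32.7 CPM with LNA NS in MDA-MB-468, and at 183 and 184 CPM after knock-down against 268 and 253 CPM with LNA NS in SUM149PT. In HCC38 DDIT4 was at 18.4 and 17.1 CPM after knock-down against 19.2 and 18.8 CPM with LNA NS. It fell in SUM149PT, the line with by far the highest level, and its log2 fold changes were 0.07 ± 0.10 for MDA-MB-468, -0.50 ± 0.09 for SUM149PT and -0.09 ± 0.10 for HCC38 (adjusted p = 0.6, 0.00078 and 0.54). The value in HCC38 became 0.03 with upper-quartile scaling, and the value in MDA-MB-468 changed sign when LNA NS replicate 1 or knock-down replicate 2 was left out (range -0.04 to 0.17). EIF4EBP1, a translation repressor that mTORC1 switches off, fell on average by 0.17 ± 0.06 on the log2 scale (adjusted p = 0.023). Its log2 fold changes were -0.26 for MDA-MB-468, -0.39 for SUM149PT and 0.14 for HCC38. In MDA-MB-468 its call was lost without either knock-down library or LNA NS replicate 1 (-0.31 to -0.24), and in SUM149PT without LNA NS replicate 2 (-0.50 to -0.27).

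Of the 7 amino acid transporters, 6 rose and 1 fell on average. SLC7A11, the cystine importer xCT, was at 46.5 and 58.97 CPM after knock-down against 13.9 and 13.5 CPM with LNA NS in MDA-MB-468, and at 33.1 and 32.3 CPM after knock-down against 26.5 and 21.3 CPM with LNA NS in SUM149PT. In HCC38 SLC7A11 was at 121 and 111 CPM after knock-down against 111 and 107 CPM with LNA NS. In MDA-MB-468 the groups were far apart, and in HCC38 they were separate by less than 1 CPM. Its log2 fold changes of 1.95 ± 0.13 for MDA-MB-468, 0.45 ± 0.12 for SUM149PT and 0.10 ± 0.12 for HCC38 (adjusted p = 1.2e-08, 0.012 and 0.6) differed most clearly between lines of all members (adjusted p = 1.8e-05). The call in SUM149PT was lost without LNA NS replicate 2, and the values there ranged from 0.30 to 0.62. SLC3A2, the shared heavy chain of SLC7A11 and SLC7A5, was at 1497 and 1761 CPM after knock-down against 606 and 598 CPM with LNA NS in MDA-MB-468, and at 1463 and 1508 CPM after knock-down against 935 and 967 CPM with LNA NS in SUM149PT. In HCC38 SLC3A2 was at 1035 and 1129 CPM after knock-down against 736 and 678 CPM with LNA NS. Knock-down libraries were higher in every line, with log2 fold changes of 1.44 ± 0.09 for MDA-MB-468, 0.64 ± 0.09 for SUM149PT and 0.61 ± 0.09 for HCC38 (adjusted p = 6.5e-09, 5.1e-05 and 8.8e-05) and an adjusted p of 0.00041 between lines.

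SLC7A5, the importer LAT1 of leucine and other large amino acids, rose in MDA-MB-468 and HCC38, by 0.80 and 0.81 on the log2 scale (adjusted p = 2e-06 and 5.5e-06). Its value in SUM149PT was 0.15 (adjusted p = 0.2), with an adjusted p of 0.0017 between lines. SLC38A2, the neutral amino acid importer SNAT2, was at 259 and 323 CPM after knock-down against 132 and 116 CPM with LNA NS in MDA-MB-468, and at 308 and 260.1 CPM after knock-down against 187 and 161 CPM with LNA NS in SUM149PT. In HCC38 SLC38A2 was at 77.4 and 72.4 CPM after knock-down against 50.1 and 44.3 CPM with LNA NS. The groups were apart in all 3 lines, and the log2 fold changes were 1.23 ± 0.12 for MDA-MB-468, 0.71 ± 0.12 for SUM149PT and 0.67 ± 0.12 for HCC38 (adjusted p = 9.2e-07, 0.00041 and 0.00089). SLC1A4, an exchanger of alanine, serine and cysteine, was at 87.7 and 84.1 CPM after knock-down against 52.6 and 54.8 CPM with LNA NS in MDA-MB-468, and at 69.1 and 64.4 CPM after knock-down against 50.1 and 45.5 CPM with LNA NS in SUM149PT. In HCC38 SLC1A4 was at 27.7 and 24.2 CPM after knock-down against 12.6 and 12.8 CPM with LNA NS. Its knock-down libraries were the higher ones in each line, and the log2 fold changes were 0.68 ± 0.10 for MDA-MB-468, 0.48 ± 0.10 for SUM149PT and 1.03 ± 0.10 for HCC38 (adjusted p = 3.9e-05, 0.0016 and 3.2e-06). SLC1A5, the glutamine transporter ASCT2, rose by only 0.21 ± 0.04 on the log2 scale (adjusted p = 0.00084) on average. Its calls in the lines (0.19 for MDA-MB-468, 0.20 for SUM149PT and 0.26 for HCC38) were each lost on leaving out a library of that line, any of the 4 in SUM149PT (0.19 to 0.21), any but LNA NS replicate 1 in MDA-MB-468 (0.11 to 0.25) and knock-down replicate 2 in HCC38 (0.24 to 0.26).

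SLC7A1, the importer CAT1 of arginine and lysine, moved the other way from the rest. SLC7A1 was at 57.0 and 56.7 CPM after knock-down against 114 and 125 CPM with LNA NS in MDA-MB-468, and at 149.8 and 130.3 CPM after knock-down against 295 and 232 CPM with LNA NS in SUM149PT. In HCC38 SLC7A1 was at 174 and 146 CPM after knock-down against 261 and 317 CPM with LNA NS. Every knock-down library was below the LNA NS libraries of its line, and the log2 fold changes were -1.07 ± 0.13 for MDA-MB-468, -0.91 ± 0.13 for SUM149PT and -0.85 ± 0.13 for HCC38 (adjusted p = 6.4e-06, 6.6e-05 and 0.00014). These falls were not shown to differ between lines (adjusted p = 0.62).

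The enzymes of serine and folate metabolism split, with 3 risen and 3 fallen on average. PHGDH, which starts serine synthesis from a glycolytic intermediate, was at 218 and 199 CPM after knock-down against 428 and 419 CPM with LNA NS in MDA-MB-468, and at 96.6 and 96.9 CPM after knock-down against 155 and 160.2 CPM with LNA NS in SUM149PT. In HCC38 PHGDH was at 106 and 118 CPM after knock-down against 206 and 194 CPM with LNA NS. It was lower after knock-down in each line without overlap, with log2 fold changes of -1.02 ± 0.09 for MDA-MB-468, -0.71 ± 0.09 for SUM149PT and -0.83 ± 0.09 for HCC38 (adjusted p = 1.3e-07, 1.6e-05 and 3.7e-06). PSAT1, the next enzyme of the same chain, rose by 0.46 ± 0.05 on the log2 scale (adjusted p = 3.4e-06) on average. Its log2 fold changes were 0.80 ± 0.09 for MDA-MB-468, 0.33 ± 0.09 for SUM149PT and 0.25 ± 0.09 for HCC38 (adjusted p = 4.9e-06, 0.013 and 0.065), and the call in HCC38 was lost without LNA NS replicate 2 or either knock-down library (0.18 to 0.32). PSPH, the last enzyme of the chain, fell in all 3 lines, and its log2 values were -0.25 ± 0.08 for MDA-MB-468, -0.41 ± 0.09 for SUM149PT and -0.60 ± 0.09 for HCC38 (adjusted p = 0.021, 0.0019 and 0.0001). The call in MDA-MB-468 was lost without LNA NS replicate 2, and the values there were -0.29 to -0.23. A pseudogene of PSPH held 25.0% as many counts as PSPH itself, so reads may be split between them and its values are less certain.

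MTHFD2 and SHMT2, of the mitochondrial folate pathway, rose. MTHFD2, a mitochondrial methylene-tetrahydrofolate dehydrogenase, was at 244 and 285 CPM after knock-down against 127 and 133 CPM with LNA NS in MDA-MB-468, and at 337 and 359 CPM after knock-down against 211 and 206 CPM with LNA NS in SUM149PT. In HCC38 MTHFD2 was at 269 and 247 CPM after knock-down against 229 and 215 CPM with LNA NS. The groups did not overlap in any line, and the log2 fold changes were 1.03 ± 0.09 for MDA-MB-468, 0.74 ± 0.09 for SUM149PT and 0.22 ± 0.09 for HCC38 (adjusted p = 2.6e-07, 2e-05 and 0.092). The call in HCC38 was lost in 10 of the 12 fits that left out 1 library (0.13 to 0.28), and the test between lines gave an adjusted p of 0.0013. SHMT2, which makes glycine from serine in mitochondria, rose by 0.39 ± 0.05 on the log2 scale (adjusted p = 2.5e-06) on average, with the largest value in MDA-MB-468 (0.63). Its calls at 0.26 in SUM149PT and 0.30 in HCC38 were lost without knock-down replicate 1 or LNA NS replicate 2 of SUM149PT (0.24 to 0.27) and without knock-down replicate 2 of HCC38 (0.25 to 0.34). ALDH1L2, a mitochondrial formyl-tetrahydrofolate dehydrogenase, fell on average by 0.33 ± 0.09 on the log2 scale (adjusted p = 0.0067). In MDA-MB-468 its call (-0.43) was lost without replicate 2 of either treatment (-0.52 to -0.36), and in SUM149PT and HCC38 it was not called.

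ASNS, asparagine synthetase and a classical ATF4 target, was at 155 and 187 CPM after knock-down against 44.99 and 39.1 CPM with LNA NS in MDA-MB-468, and at 133 and 116 CPM after knock-down against 60.1 and 67.98 CPM with LNA NS in SUM149PT. In HCC38 ASNS was at 82.8 and 84.4 CPM after knock-down against 36.4 and 27.99 CPM with LNA NS. Knock-down libraries were higher than LNA NS libraries in every line, with log2 fold changes of 2.02 ± 0.13 for MDA-MB-468, 0.96 ± 0.13 for SUM149PT and 1.38 ± 0.13 for HCC38 (adjusted p = 1.3e-08, 5.2e-05 and 2.1e-06) that differed between lines (adjusted p = 0.0025). CTH, cystathionine gamma-lyase, which makes cysteine, was at 27.8 and 27.99 CPM after knock-down against 10.97 and 11.4 CPM with LNA NS in MDA-MB-468, and at 6.51 and 5.76 CPM after knock-down against 5.92 and 5.90 CPM with LNA NS in SUM149PT. In HCC38 CTH was at 6.83 and 6.38 CPM after knock-down against 3.69 and 4.36 CPM with LNA NS. In SUM149PT its groups overlapped, and the log2 fold changes were 1.32 ± 0.13 for MDA-MB-468, 0.06 ± 0.14 for SUM149PT and 0.71 ± 0.14 for HCC38 (adjusted p = 7.3e-07, 0.81 and 0.0013), with a between-line adjusted p of 0.0011. The value of CTH in SUM149PT changed sign without knock-down replicate 1 (range -0.04 to 0.15). PCK2, the mitochondrial phosphoenolpyruvate carboxykinase, rose on average by 0.38 ± 0.05 on the log2 scale (adjusted p = 2e-05), and most in MDA-MB-468 (0.74). In HCC38 its call at 0.29 was lost without replicate 2 of either treatment (0.20 to 0.35). GPT2, a mitochondrial alanine aminotransferase, was not called in any line, with log2 fold changes between -0.12 and 0.18.

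The 3 secreted or surface proteins all rose on average. ADM2, a secreted peptide of the calcitonin family, was at 70.5 and 76.6 CPM after knock-down against 28.1 and 33.7 CPM with LNA NS in MDA-MB-468, and at 21.9 and 25.02 CPM after knock-down against 13.4 and 11.99 CPM with LNA NS in SUM149PT. In HCC38 ADM2 was at 29.4 and 30.4 CPM after knock-down against 10.4 and 10.6 CPM with LNA NS. The groups were apart in each line, and the log2 fold changes were 1.25 ± 0.12 for MDA-MB-468, 0.88 ± 0.12 for SUM149PT and 1.51 ± 0.12 for HCC38 (adjusted p = 3.6e-07, 5.3e-05 and 3.3e-07). ADM2 overlaps SBF1 on the other strand. STC2, a secreted glycoprotein, was at 164 and 203 CPM after knock-down against 78.2 and 86.8 CPM with LNA NS in MDA-MB-468, and at 185 and 192 CPM after knock-down against 164 and 157 CPM with LNA NS in SUM149PT. In HCC38 STC2 was at 64.7 and 63.9 CPM after knock-down against 29.6 and 30.9 CPM with LNA NS. It rose by more than 2-fold in MDA-MB-468 and HCC38, and the log2 fold changes of 1.15 ± 0.10 for MDA-MB-468, 0.23 ± 0.10 for SUM149PT and 1.09 ± 0.10 for HCC38 (adjusted p = 2.2e-07, 0.094 and 1.7e-06) differed between lines (adjusted p = 0.00052). In SUM149PT the call was lost in 10 of the 12 fits that left out 1 library (0.20 to 0.26). VLDLR, a lipoprotein receptor, was at 31.99 and 28.6 CPM after knock-down against 26.5 and 24.8 CPM with LNA NS in MDA-MB-468, and at 0.390 and 0.416 CPM after knock-down against 0.0536 and 0.228 CPM with LNA NS in SUM149PT. In HCC38 VLDLR was at 9.06 and 7.92 CPM after knock-down against 8.30 and 7.35 CPM with LNA NS. In SUM149PT it was near the floor of detection, with 35 counts over both knock-down libraries against 9 over both LNA NS libraries. Its log2 fold changes were 0.24 ± 0.15 for MDA-MB-468, 1.57 ± 0.47 for SUM149PT and 0.12 ± 0.16 for HCC38 (adjusted p = 0.21, 0.019 and 0.62), and the call in SUM149PT was lost without LNA NS replicate 1, with values of 0.81 to 2.83. All other members had at least 94 counts in every library.

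The response differed between lines for 24 of the 37 members, where it differed for 32.4% of all genes tested. Among these 24 members the highest value was in MDA-MB-468 for 13, in HCC38 for 10 and in SUM149PT for 1, ATF4. The lowest was in SUM149PT for 15, in HCC38 for 8 and in MDA-MB-468 for 1. The line of the highest or lowest value was not counted over all genes, so these counts are not shown to be particular to the members. Those highest in MDA-MB-468 were EIF2AK1, ATF5, DDIT4, SLC7A11, SLC3A2, SLC38A2, PSAT1, SHMT2, MTHFD2, ASNS, CTH, PCK2 and STC2, and those highest in HCC38 were DDIT3, CEBPB, JDP2, NUPR1, TRIB3, CHAC1, EIF4EBP1, SLC7A5, SLC1A4 and ADM2. For ATF4 the difference between lines (adjusted p = 0.098) was lost in 10 of the 12 fits that left out 1 library. For EIF2AK1 (adjusted p = 0.072) it was lost in 11. ATF3, PPP1R15A, SESN2 and SLC7A1 were not shown to differ between lines, with adjusted p of 0.67, 0.53, 0.67 and 0.62.

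In the LNA NS libraries all 37 members differed in level between the lines, where 85.9% of all genes tested did, so this share was close to that of genes in general. Of the 111 pairs of lines compared over the members, 98 (88.3%) passed the test, against 69.8% of the pairs over all genes tested. The highest level was in MDA-MB-468 for 18 members, in SUM149PT for 12 and in HCC38 for 7, and the lowest was in HCC38 for 22. The line with the highest or lowest level was not counted over all genes, so this order is not shown to be particular to the members. The distance between the highest and the lowest line exceeded 1 on the log2 scale for 27 members (73.0%), as it did for 67.7% of all genes, and its median was 1.46 over the members against 1.47 over all genes. VLDLR had the widest distance, 7.56 between MDA-MB-468 and SUM149PT, followed by NUPR1 (4.15, between the same lines), DDIT4 (3.78, between SUM149PT and HCC38) and CHAC1 (3.46, between SUM149PT and HCC38).

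Per kb of exon, ATF4 with LNA NS was at 297 CPM per kb for MDA-MB-468, at 113 for SUM149PT and at 85.8 for HCC38. It had the highest level of the 37 members in MDA-MB-468 and ranked 6 in each of the other lines, where SLC7A5 was highest, at 197 CPM per kb in SUM149PT and 217 in HCC38. All 3 pairs of lines differed for ATF4, with log2 differences in level of 1.40 for MDA-MB-468 over SUM149PT (adjusted p = 6.8e-10), 1.79 for MDA-MB-468 over HCC38 (adjusted p = 4e-11) and 0.39 for SUM149PT over HCC38 (adjusted p = 0.00071). CHAC1 was ordered otherwise, at 6.67 CPM per kb for MDA-MB-468, 11.6 for SUM149PT and 1.05 for HCC38, and so was SLC7A11, at 1.42, 2.48 and 11.3 CPM per kb in the same order of lines. HCC38 held the highest SLC7A11 level with LNA NS and the smallest SLC7A11 response. For ATF3 the levels in SUM149PT and HCC38, 3.40 and 3.34 CPM per kb, did not differ beyond their spread (adjusted p = 0.89). The kinase EIF2AK3 was the member with the lowest level per kb in MDA-MB-468, at 0.901 CPM per kb over 20691 bases of exon. Without division by exon length it was not the lowest, at 18.7 CPM against 11.2 for CTH and 13.7 for both CHAC1 and SLC7A11. Exon lengths join all annotated exons of a gene, so the order of members per kb depends on them. They come from an annotation that may differ from the one the reads were counted on.

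**Figure D3:**
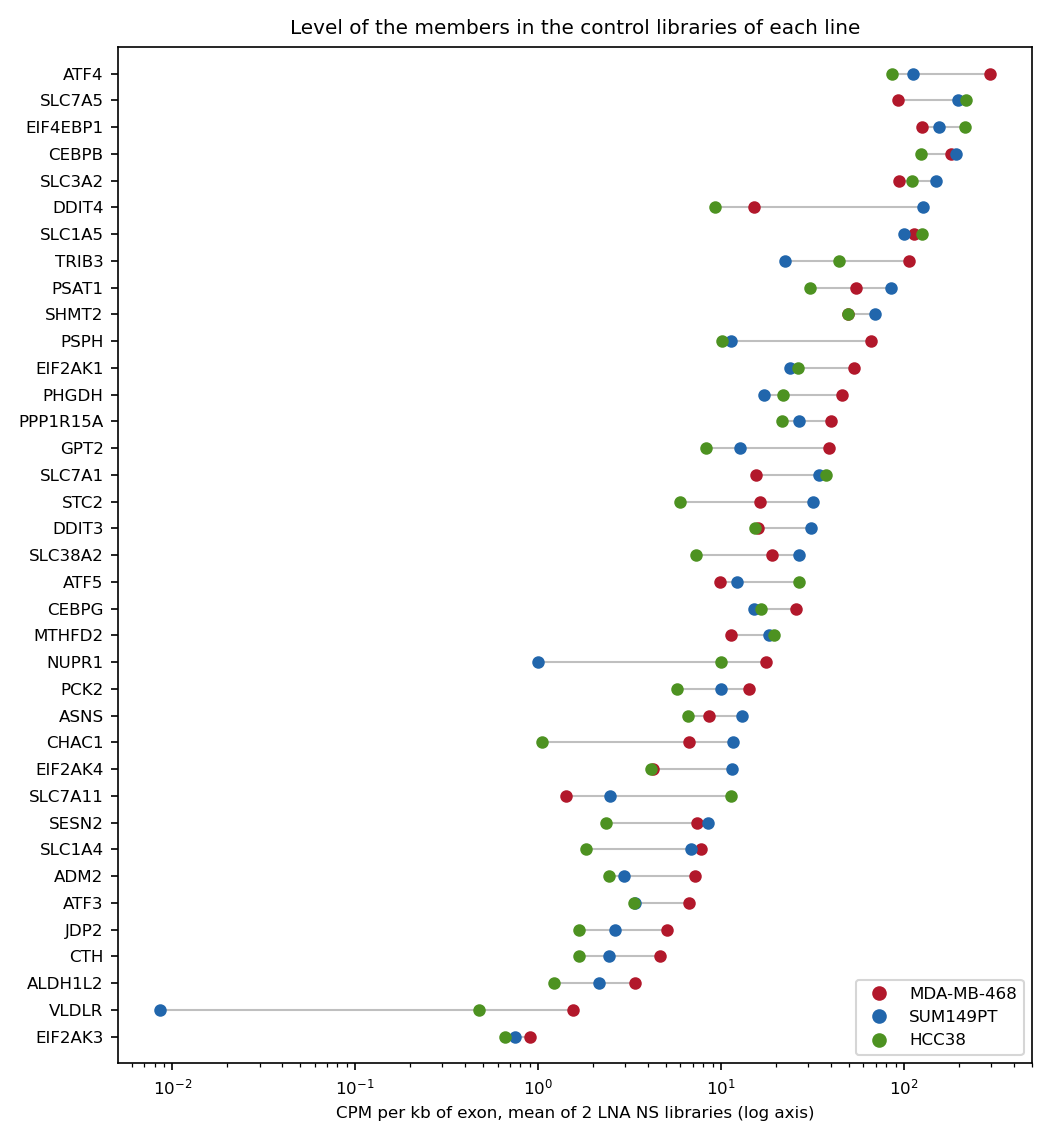
The level of each member in LNA NS libraries, in CPM per kb of exon on a log axis, is plotted as the mean of 2 libraries for each line, with a line from the lowest to the highest. ATF4 in MDA-MB-468 has the highest level, and VLDLR (7.56 on the log2 scale), NUPR1, DDIT4 and CHAC1 have the longest lines.

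Long genes fell more often than short ones in these data, and the members were read against this. Over all genes tested with a position, genes spanning more than 75 kb had a median log2 fold change of -0.23 on average over the lines and 45.1% of them fell, against a median of 0.10 and 21.7% fallen for genes up to 75 kb. Of the 6 members longer than 75 kb (SLC7A11, SLC7A1, ALDH1L2, PHGDH, EIF2AK4 and EIF2AK3), 1 rose and 4 fell, with a median of -0.32. Of the 31 shorter members, 25 rose and 4 fell, with a median of 0.61. The members that rose had a median span of 18.7 kb, close to the 19.3 kb of all risen genes, and those that fell had 63.4 kb, against 43.6 kb for all fallen genes.

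A smooth trend on gene span was then fitted to the levels of each library and removed before the test. With it removed, 27 members rose and 8 fell on average, where 28.2% of all genes rose and 27.7% fell. In MDA-MB-468, 24 rose and 5 fell (25.8% and 25.5% of all genes), in SUM149PT 19 rose and 7 fell (19.4% and 20.7% of all genes) and in HCC38 20 rose and 4 fell (16.5% and 18.1% of all genes). The fall of SLC7A1 was then -0.83 (adjusted p = 6e-09), that of PHGDH -0.71 (adjusted p = 1.9e-08) and that of PSPH -0.44 (adjusted p = 5.5e-07). EIF2AK3, not called before, had 0.39 (adjusted p = 0.00023). The values of CHAC1 and ASNS became 1.80 and 1.36, and that of SLC1A5 became 0.09 (adjusted p = 0.087), against 0.21 before. In single lines 12 calls were lost. SLC1A5 lost its call in all 3 lines, with values of 0.04 for MDA-MB-468, 0.09 for SUM149PT and 0.14 for HCC38 (adjusted p = 0.68, 0.37 and 0.19). In HCC38 the calls of ATF4 and ATF5 were lost, as were those of EIF2AK4, SHMT2 and PCK2, at -0.19, 0.12 and 0.19 (adjusted p = 0.17, 0.26 and 0.13). In MDA-MB-468 those of EIF2AK4, ALDH1L2 and EIF2AK1 were lost, at -0.09, -0.25 and 0.16 (adjusted p = 0.51, 0.14 and 0.12), and in SUM149PT that of STC2, at 0.12 (adjusted p = 0.37). The calls gained in single lines were those of EIF2AK3 in MDA-MB-468 and SUM149PT (0.61 and 0.35), GPT2 in SUM149PT and HCC38 (-0.19 and 0.24) and DDIT4 in HCC38 (-0.27).

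**Figure D4:**
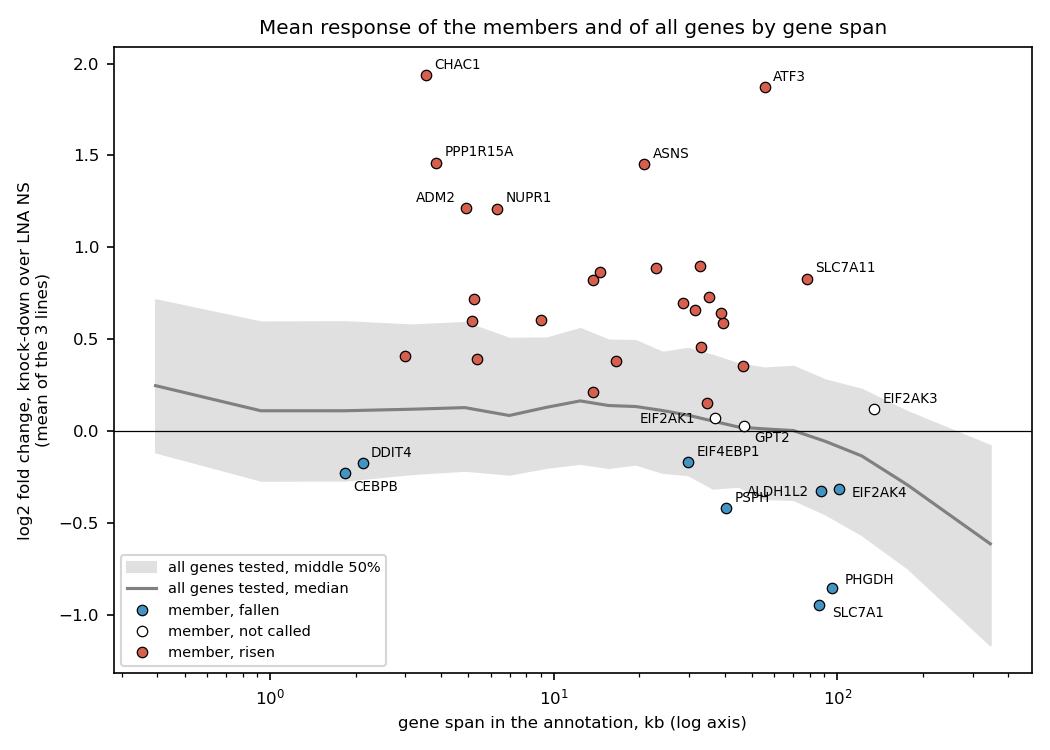
The average log2 fold change over the 3 lines, knock-down over LNA NS, is plotted against gene span in kb on a log axis for the 37 members (points, colored by call), with the median of all genes tested as a line and their middle 50% as a band, in 20 classes of span. SLC7A1 and PHGDH lie below the band of genes of similar span, and SLC7A11, at 78.3 kb, lies above it.

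Other genes around the pathway did not move as a block. The first list held 17 genes, for eIF2, eIF2A, the exchange factor eIF2B, the kinase EIF2AK2, the regulatory partners of the kinases and the eIF2alpha phosphatases. Of these 17, 5 (29.4%) rose and 4, EIF2AK2 among them, fell on average, where 28.4% of all genes rose and 26.5% fell. Their median log2 fold change was 0.05 (all genes tested 0.04). EIF2B3, a subunit of the exchange factor, fell by 1.31 on the log2 scale (adjusted p = 6.4e-10). PPP1R15B, the constitutive counterpart of PPP1R15A in eIF2alpha dephosphorylation, rose by 0.42, PPP1CC, a catalytic subunit, rose by 0.31 and DNAJC3, an inhibitor of the kinases, fell by 0.19 on the same scale (adjusted p = 0.00019, 0.00033 and 0.0053).

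Of 24 further ATF4 and CHOP targets with enough counts, 14 (58.3%) rose and 7 fell on average, where 28.4% of all genes rose and 26.5% fell. Their median was 0.24, against 0.04 over all genes tested. SLC6A9, a glycine transporter, and BCL2L11, the pro-apoptotic protein BIM, rose by 0.94 and 0.99 (adjusted p = 2.1e-09 and 2.2e-09). SHMT1, the cytosolic counterpart of SHMT2, and MTHFD1L, a mitochondrial formyl-tetrahydrofolate synthetase, fell by 0.82 and 0.90 on the log2 scale (adjusted p = 5.1e-09 and 5.9e-09). A further 20 genes were of the ATF6 and XBP1 branches, which sense unfolded protein in the endoplasmic reticulum beside PERK. Of these 20, 8 (40.0%) rose and 9 fell on average, with a median of -0.04, against the same shares of all genes. The secreted factor CRELD2 and the disulfide isomerase PDIA4 fell by 0.57 and 0.44 on the log2 scale (adjusted p = 1.6e-07 and 4.1e-07). ERN1, the sensor IRE1, and the chaperone DNAJB9 rose by 0.89 and 0.88 (adjusted p = 7.8e-07 and 9.1e-07).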

How the data were processed

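The authors deposited counts of reads per Ensembl gene for 12 poly(A)-selected, strand-specific RNA libraries, not normalized, on GRCh37 with HTSeq. The study's methods name STAR as aligner, whereas the submitters' processing notes list TopHat2 2.0.13 and HTSeq 0.6.0; the annotation release and the strand setting of the counting are not given in the sources used here, so reads from overlapping genes on opposite strands cannot be told apart (13 members overlap another gene in exons). The 5 summary lines of each library, 40.8% to 53.7% of its counts, were left out.

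Genes passed filterByExpr (minimum count 10, minimum total 15), and 1 fit in edgeR 4.0.16 (R 4.3.3, limma 3.58.1; TMM, 6 group means, 6 residual degrees of freedom, common dispersion 0.0109) gave the contrasts, the F test between lines and the comparison of LNA NS levels. Values after ± are standard errors of the log2 fold change. DESeq2 1.42.0, other scalings and filters, each line alone, a replicate block, removal of a gene span trend and leaving out each library were tried. The fit was tested on simulated data. The samples are duplicates by the labels, with nothing on separate cultures, so the p-values measure the spread between these libraries, which may be technical. Depth limits VLDLR in SUM149PT alone among the members.

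Positions, spans and exon lengths come from GENCODE release 44 lifted to GRCh37, which matched 55665 of 63677 genes (the others held 0.636% of counts). Per-library values are given for members past 2-fold with a call in a line, for ATF4, TRIB3 and the kinases, and for the 4 widest differences between lines in LNA NS level; from other lists, up to 4 genes with the smallest adjusted p. The members and lists were chosen with earlier results of these data known. Figures were drawn with matplotlib 3.10.9 in Python 3.11.15.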

Additional observations from a re-analysis of the deposited data

Results flagged for a closer look

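The change after knock-down differed between the 3 lines for 24 members, by the F test of the differences between the line contrasts in edgeR (adjusted p under 0.1). For genes of amino acid and carbon metabolism the adjusted p was 1.8e-05 for SLC7A11, 0.00041 for SLC3A2, 0.0011 for CTH, 0.0013 for MTHFD2, 0.0017 for SLC7A5, 0.0025 for ASNS, 0.0062 for PCK2, 0.013 for PSAT1, 0.028 for SLC1A4, 0.036 for SHMT2 and 0.039 for SLC38A2. For transcription factors it was 0.0023 for ATF5, 0.0024 for NUPR1, 0.003 for DDIT3, 0.0091 for CEBPB, 0.034 for JDP2 and 0.098 for ATF4. For the other members it was 0.00052 for STC2, 0.012 for TRIB3, 0.015 for both CHAC1 and DDIT4, 0.026 for EIF4EBP1, 0.034 for ADM2 and 0.072 for EIF2AK1.

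For 16 of these 24 members the adjusted p stayed under 0.1 whichever library was left out. It passed 0.1 for EIF2AK1 in 11 of the 12 fits without 1 library (up to 0.20) and for ATF4 in 10 (up to 0.28). It also did so for SHMT2 without either MDA-MB-468 library of replicate 2 or LNA NS replicate 1 of that line (up to 0.17), for SLC38A2 without either MDA-MB-468 library of replicate 2 (up to 0.24), for ADM2 without either SUM149PT library of replicate 1 (up to 0.14), for JDP2 without knock-down replicate 2 or LNA NS replicate 1 of HCC38 (up to 0.18), for SLC1A4 without HCC38 knock-down replicate 1 (0.15) and for EIF4EBP1 without HCC38 knock-down replicate 2 (0.14).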

How the results depend on the processing

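The counts of members risen and fallen stayed within 1.5 times under DESeq2, RLE scaling, an adjusted p under 0.05, no filter, a filter of 10 counts in every library, each line alone, a span trend removed and a replicate block, with 1 exception under upper-quartile scaling, where 3 in place of 7 members fell in MDA-MB-468. Over all genes, 21.2% fell there with that scaling, against 25.7% with TMM. Without 1 library the count of members fallen in MDA-MB-468 was 4 to 7, where 19.7% to 24.6% of all genes fell. With a change of more than 2-fold required, 13 members rose and 2 fell in MDA-MB-468, 4 rose and 0 fell in SUM149PT, 9 rose and 0 fell in HCC38, and 6 rose and 0 fell on average. Of all 21325 genes tested, 1965, 1345 and 1057 rose and 2341, 920 and 940 fell by more than 2-fold in the same lines. On average 1513 of them rose and 1157 fell by that much. With the replicate block 23, 19 and 22 members rose and 7, 6 and 4 fell in MDA-MB-468, SUM149PT and HCC38; replicate numbers did not pair the libraries (correlations of same-numbered deviations -0.03, 0.24 and -0.34). Crossed pairs in HCC38, added after the data were seen, gave 24 risen and 4 fallen there, where 17.1% of all genes rose and 20% fell.

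Signs turned only for small values. With the span trend removed, EIF2AK3 had 0.21 in HCC38, DDIT3 -0.043 in SUM149PT, CEBPB -0.083 in HCC38, DDIT4 -0.095 in MDA-MB-468, CTH -0.032 and PCK2 -0.0018 in SUM149PT. With upper-quartile scaling, EIF2AK3 had 0.030 and DDIT4 0.031 in HCC38. Without 1 library, the range was -0.0435 to 0.15 for CTH and -0.080 to 0.15 for DDIT3 in SUM149PT, -0.041 to 0.17 for DDIT4 and -0.045 to 0.10 for GPT2 in MDA-MB-468, and -0.0033 to 0.21 for VLDLR in HCC38. Other calls in single lines ended without a filter (9 values), with the replicate block (5), with each line alone (4), with RLE scaling (1) and with DESeq2 (1), all in HCC38 for ATF4, ATF5, PSAT1, MTHFD2 and PCK2, in MDA-MB-468 for EIF2AK1, JDP2 and SLC1A5 and in SUM149PT for SLC1A5 and STC2, at 0.17 to 0.27 (adjusted p 0.11 to 0.27). The causes were not tested.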
